A study of Caenorhabditis elegans with 4 samples.

Results

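Centrosome and centriole assembly genes were followed in RNA sequencing of dissected gonads and of germline-poor whole worms of the nematode *Caenorhabditis elegans*. The set was chosen by name and holds 10 genes, *zyg-1*, *sas-4*, *sas-5*, *sas-6*, *spd-2*, *spd-5*, *zyg-9*, *tac-1*, *tbg-1* and *gip-1*, out of 20181 gene rows in the count table. All 10 were found by their WormBase identifiers and all 10 had enough counts to be tested. One group was gonads dissected from young adults of N2, the standard wild-type strain (2 libraries). The other was whole young adults of the *glp-4 (bn2)* mutant (2 libraries), a temperature-sensitive mutation in a valyl-tRNA synthetase gene that leaves few germ cells at the restrictive temperature. The labels give no growth temperature. Worms of both groups were hatched overnight and grown on OP50 bacteria, and each library came from about 50 gonads or whole worms. Genotype and tissue changed together between the groups, so their shares in a difference cannot be told apart. The series was set up to sort transcripts into germline and somatic ones. Here the levels of these genes in gonads and in *glp-4* worms were compared, and whether each is a germline or a somatic transcript was not tested.

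The centrosome is the main microtubule-organizing body of an animal cell, a pair of centrioles surrounded by pericentriolar material. In *C. elegans* SPD-2 brings the kinase ZYG-1 to the existing centriole, ZYG-1 then recruits SAS-5 and SAS-6 to build the core of the new one, and SAS-4 is added around it. SPD-5 forms the scaffold of the pericentriolar material, which holds gamma-tubulin complexes and the microtubule polymerase ZYG-9 with its partner TAC-1. Oocytes lose their centrioles during oogenesis, the sperm brings a pair, and maternal proteins then build the centrosomes of the embryo. Most somatic cells of the adult no longer divide, and sensory neurons keep SPD-5 and gamma-tubulin at the base of their cilia.

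Library totals were 21806767 and 24148583 counts in gonads and 19538620 and 25624824 counts in *glp-4* worms. Germ cell markers were high in gonads and low in *glp-4* worms: the 10 genes listed, among them *pgl-1*, *gld-1* and *rec-8*, summed to 20233 and 20928 CPM in gonads, compared with 178 and 174 CPM in *glp-4* worms (CPM, counts per 1e+06 counts of the TMM-scaled library). No defining germ cell marker of that list was at 0 in *glp-4* worms. Sperm markers were sparse, with 8 genes summing to 10.4 and 7.50 CPM in gonads, compared with 3.66 and 3.79 CPM in *glp-4* worms. Of the 4 with enough counts to be tested, 3 were higher in gonads, as were 30.9% of all genes tested. The other, *spe-41*, was neither, and had 5.08 and 4.42 CPM in gonads, compared with 3.10 and 3.10 CPM in *glp-4* worms. All 5 body wall muscle, all 6 intestine and all 5 neuron markers were lower in gonads, as were 4 of 5 hypodermis markers, whereas *lin-26* was higher. Somatic gonad markers were mixed, with 1 of 7 higher in gonads, 3 lower and 3 neither. Their summed level was 555 and 583 CPM in gonads, compared with 489 and 532 CPM in *glp-4* worms. Most of each sum came from *fln-1*, which was neither (468 and 510 CPM in gonads, compared with 374 and 397 CPM in *glp-4* worms). The part of somatic gonad cells in the gonad levels was not tested. Whether the duplicates were grown as separate cultures is not stated in the labels, and the p-values cover the spread between libraries alone, which may be technical.

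All 10 centrosome genes were higher in gonads than in *glp-4* worms, by 3.11-fold to 45.6-fold. Across all 13101 genes tested, 30.9% were called higher in gonads, 53.1% lower and 83.9% in either direction, where a call needed a difference of 2-fold or more at an adjusted p below 0.05. These were 4043 genes higher and 6952 lower, or 2294 higher and 8077 lower when libraries were scaled to 7 housekeeping genes. The median log2 fold change (gonad minus *glp-4* worm) was 2.75 over the 10 genes and -1.50 over all genes tested. For no member did the libraries of the groups overlap. The share of all genes tested without such overlap was not computed, and 83.9% were called in either direction, so that is no result about the members. Adjusted p-values of the 10 genes reached at most 5.31e-10, in *gip-1* (edgeR quasi-likelihood fit, Benjamini-Hochberg over all genes tested). In such bulk samples, fewer cells of a type and less RNA per cell cannot be told apart. With the housekeeping scaling the median of all genes moved by -1.20 on the log2 scale and 8 of the 10 genes were called, without *tac-1* and *gip-1*.

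**Figure D1:**
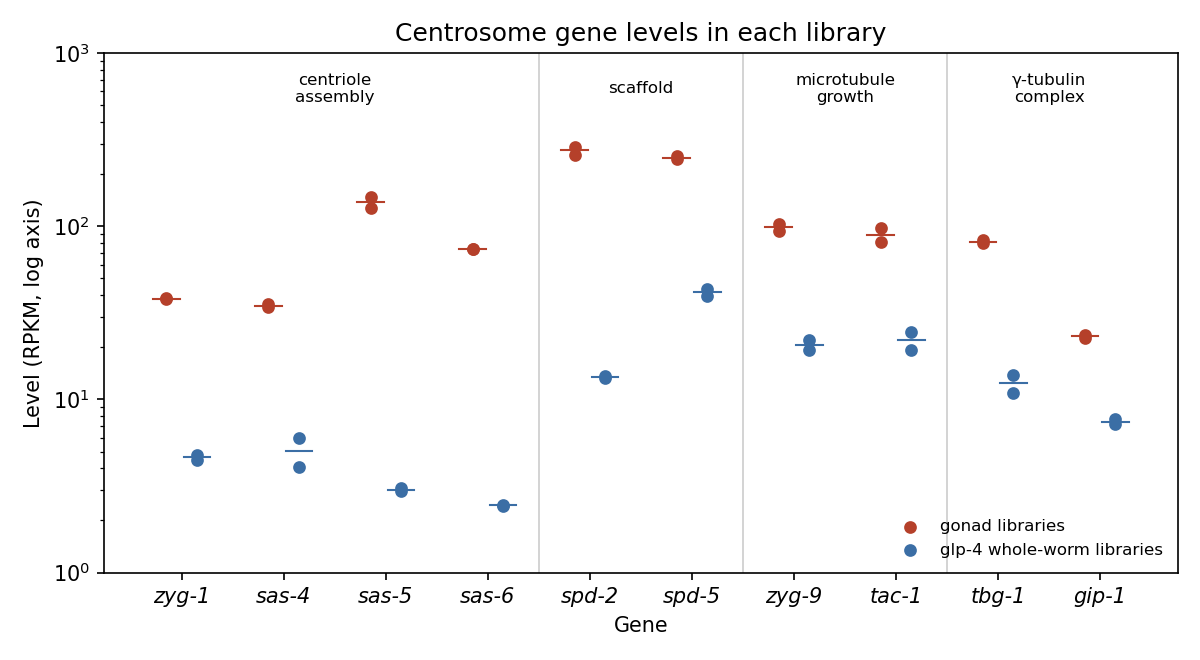
Level of each gene in reads per kilobase of exon per 1e+06 reads (RPKM, log axis), with 1 point per library and a line at the mean of 2 libraries. Gonad libraries stand left of *glp-4* whole-worm libraries. For every gene both gonad points lie above both worm points, and the distance is widest for *sas-5* (137 RPKM in gonads and 3.01 RPKM in *glp-4* worms).

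The 4 centriole assembly genes spanned the widest range of differences. The steepest was *sas-5*, whose coiled-coil product acts with SAS-6 in starting a new centriole (WBGene00009385, WBcel235, chromosome V, 11610737 to 11612596). It had 3686 and 4561 counts in the gonad libraries and 88 and 109 counts in the *glp-4* libraries, which is 175 and 204 CPM in gonads, compared with 4.08 and 4.22 CPM in *glp-4* worms. The log2 fold change was 5.51 ± 0.17 (SE), a 45.6-fold difference. The gonad values were far apart from each other compared with the worm values, yet the lower of them was still above both worm libraries.

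Its partner *sas-6* encodes the protein whose oligomers form the central scaffold of the centriole (WBGene00012888, chromosome IV, 13786945 to 13788731). Levels were 116 and 114.8 CPM in gonads, compared with 3.84 and 3.79 CPM in *glp-4* worms, with a log2 fold change of 4.91 ± 0.16. Both groups were tight for this gene, and it had the lowest count of the set, 83 in *glp-4* replicate 1. About 1.09% of its exon length is shared with *icap-1* on the same strand.

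The kinase gene *zyg-1*, which starts centriole duplication (WBGene00006988, chromosome II, 5649748 to 5654422), had 89.6 and 88.9 CPM in gonads, compared with 10.5 and 11.2 CPM in *glp-4* worms. Its difference of 3.04 ± 0.15 on the log2 scale was less steep than that of the genes whose products it recruits. The gene *sas-4*, needed to add microtubules to the new centriole (WBGene00004726, chromosome III, 8314349 to 8318588), had 90.4 and 95.0 CPM in gonads, compared with 10.8 and 15.8 CPM in *glp-4* worms. It was the member with the least even worm libraries, and its log2 fold change of 2.79 ± 0.17 became 2.53 without *glp-4* replicate 1 and 3.08 without *glp-4* replicate 2.

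Both scaffold genes were the most abundant members per exon length in gonads. *spd-2*, which acts in centriole duplication and in recruiting pericentriolar material (WBGene00004953, chromosome I, 8966985 to 8970081), had 672 and 748 CPM in gonads, compared with 34.3 and 35.4 CPM in *glp-4* worms. The difference was 4.35 ± 0.16 (SE) on the log2 scale, or 20.4-fold. *spd-5*, the main scaffold gene of the pericentriolar material (WBGene00004955, chromosome I, 5171275 to 5176654), had 989 and 1029 CPM in gonads, compared with 161 and 175 CPM in *glp-4* worms. It was 6.0-fold higher in gonads, and the worms had 16.7% of the gonad level of *spd-5* and 4.91% of that of *spd-2*. Small parts of their exons lie opposite other genes, 0.771% for *spd-2* (*mdt-31*) and 0.961% for *spd-5* (*hcp-6*). The sources used here do not say whether reads were counted by strand.

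The microtubule growth pair differed less. *zyg-9*, which encodes a microtubule polymerase of the XMAP215 family (WBGene00006994, chromosome II, 8457818 to 8464512), had 467 and 425 CPM in gonads, compared with 99.4 and 86.7 CPM in *glp-4* worms. *tac-1*, which encodes its TACC-family partner (WBGene00006381, chromosome II, 14752891 to 14753877), had 84.8 and 70.8 CPM in gonads, compared with 21.3 and 16.9 CPM in *glp-4* worms. The log2 fold changes were 2.26 ± 0.14 for *zyg-9* and 2.03 ± 0.16 (SE) for *tac-1*. Libraries of one group were less even for *tac-1* than for *zyg-9*, and for both genes the groups stayed apart. Scaled to the housekeeping genes, *tac-1* was higher by 0.82 on the log2 scale, under the fold minimum.

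Of the gamma-tubulin complex genes, *tbg-1* encodes gamma-tubulin itself, from which microtubules are nucleated (WBGene00006540, chromosome III, 9626536 to 9629154). It had 117 and 123 CPM in gonads, compared with 16.2 and 20.5 CPM in *glp-4* worms, a log2 fold change of 2.71 ± 0.15 (SE). *gip-1*, which encodes a partner of gamma-tubulin in the complex (WBGene00001589, chromosome III, 2347591 to 2362056), had 84.9 and 81.5 CPM in gonads, compared with 25.8 and 27.7 CPM in *glp-4* worms. At 1.64 ± 0.14 it had the smallest difference of the set, and its value scaled to the housekeeping genes was 0.43. The *glp-4* worms had 32.1% of the gonad level of *gip-1*, the highest share among the 10 genes.

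**Figure D2:**
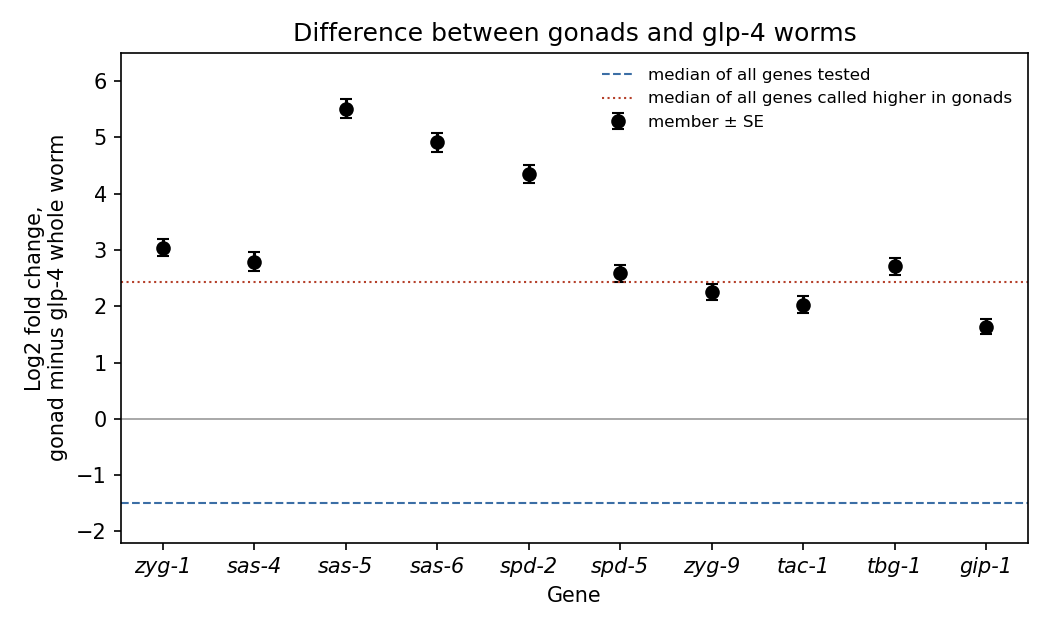
Log2 fold change of each gene, gonad minus *glp-4* whole worm, with bars of 1 SE from the edgeR fit on 2 libraries per group. The dashed line marks the median of all genes tested (-1.50) and the dotted line the median of all genes called higher in gonads (2.44). *sas-5*, *sas-6* and *spd-2* lie above 4, and *zyg-9*, *tac-1* and *gip-1* lie below the dotted line.

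Against other genes called higher in gonads, the members ran from the lower to the upper part of the range. Of 4043 such genes, 84.8% had a smaller log2 fold change than *sas-5*, 80.5% than *sas-6* and 77.2% than *spd-2*. The figure was 53.9% for *spd-5*, 36.7% for *tac-1* and 21.9% for *gip-1*. The 10 genes together made up 0.279% and 0.276% of all counts in gonads and 0.0428% and 0.0401% in *glp-4* worms.

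Levels per exon length put the scaffold genes first in gonads. *spd-2* had 274 ± 20.7 RPKM and *spd-5* had 249 ± 7.10 RPKM (SD, n = 2), followed by *sas-5* at 137 ± 14.8 RPKM. *zyg-9*, *tac-1* and *tbg-1* came next at 98.8, 89.2 and 81.5 RPKM, and neighbours among these 3 overlapped in their libraries. *sas-6* followed at 73.9 RPKM, *zyg-1* at 38.1 RPKM, *sas-4* at 34.8 RPKM and *gip-1* at 23.2 RPKM. This order was the same with the length of the longest transcript and with library totals in place of the TMM scaling.

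The order was different in *glp-4* worms. *spd-5* was first with 41.4 ± 2.51 RPKM (SD, n = 2), ahead of *tac-1* (21.9 RPKM) and *zyg-9* (20.6 RPKM), whose libraries overlapped. *spd-2* (13.4 RPKM) and *tbg-1* (12.4 RPKM) overlapped as well, and so did *sas-4* (5.01 RPKM) and *zyg-1* (4.62 RPKM). *gip-1* was sixth in order at 7.44 RPKM, while *sas-5* and *sas-6* closed the list at 3.01 and 2.45 RPKM.

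Ratios between genes whose products work together therefore differed between the groups. Per exon length, *sas-4* stood at 0.458 and 0.484 times *sas-6* in gonads and at 1.65 and 2.45 times *sas-6* in *glp-4* worms. *zyg-1* stood at 0.516 times *sas-6* in both gonad libraries, against 1.81 and 1.96 times in *glp-4* worms. *spd-5* had 0.940 and 0.880 times the level of *spd-2* in gonads and 3.0 and 3.17 times in *glp-4* worms. Thus *sas-6* and *spd-2*, which exceeded these partners in gonads, were the lower of each pair in the worms. *sas-5* had 3.32 and 3.89 times the level of *zyg-1* in gonads and 0.662 and 0.641 times in *glp-4* worms, so this pair also changed order.

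The other 3 pairs of members kept their ratios closer together. The ratio of *zyg-9* to *tac-1* was 1.06 and 1.16 in gonads and 0.903 and 0.991 in *glp-4* worms, close to 1 in every library. *tbg-1* had 3.36 and 3.68 times the level of *gip-1* in gonads and 1.53 and 1.80 times in *glp-4* worms. *sas-5* to *sas-6* gave 1.71 and 2.01 in gonads and 1.20 and 1.26 in *glp-4* worms. In none of these 7 pairs did the groups overlap, and how often that holds for other pairs of genes was not computed. With 2 libraries against 2 an exact permutation test of a ratio cannot give a p below 0.333, so the ratios are descriptions.

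**Figure D3:**
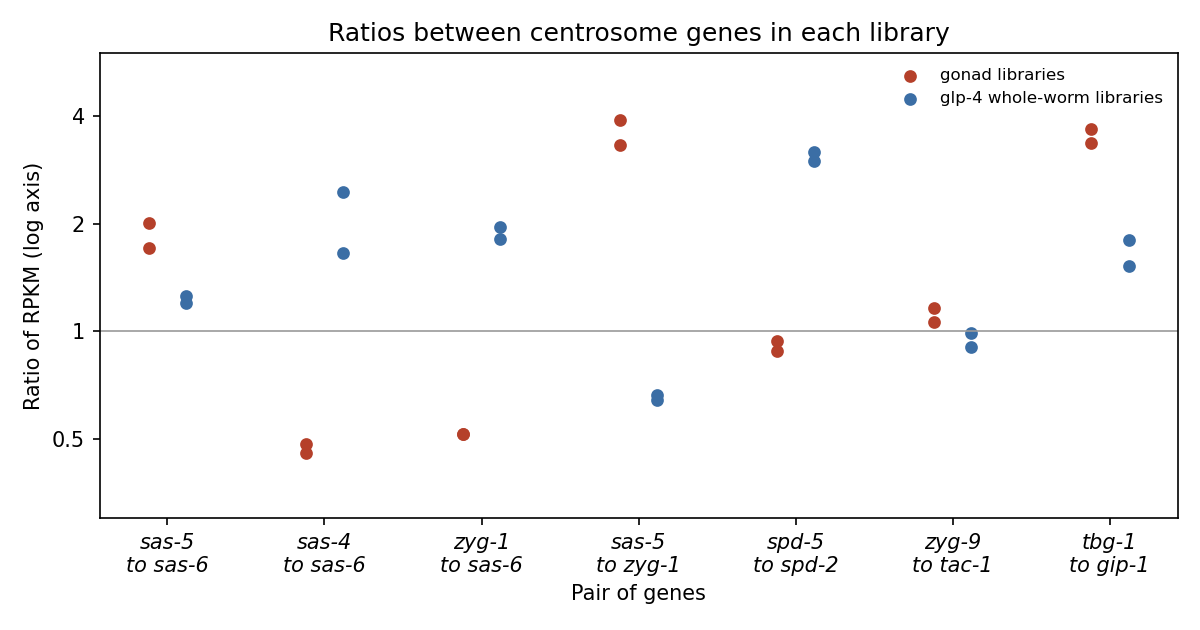
Ratio of RPKM between pairs of centrosome genes (log axis), with 1 point per library and gonad libraries left of *glp-4* whole-worm libraries. The ratios of *sas-4* and *zyg-1* to *sas-6* and of *spd-5* to *spd-2* lie below 1 in gonads and above 1 in the worms, that of *sas-5* to *zyg-1* lies above 1 in gonads and below 1 in the worms, and that of *zyg-9* to *tac-1* is near 1 in all 4 libraries.

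A list of 21 further centrosome genes was higher in gonads throughout, with 21 of 21 called and a median log2 fold change of 2.56 (background 30.9%), although with the housekeeping scaling 14 were called and *zyg-12* and *paa-1* turned to -0.00214 and -0.038. It fell into 2 ranges. In 6 genes the *glp-4* worms had between 1.14% and 3.11% of the gonad level. These were the mitotic kinase genes *plk-1* and *air-1*, the gene of the AIR-1 activator *tpxl-1*, *rsa-1* and *rsa-2*, which bring the phosphatase PP2A to the centrosome, and *pcmd-1*, which tethers pericentriolar material to centrioles. In the other 15 genes the share was between 11.1% and 44.7%. The ranges were read off after the values were seen and carry no test.

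*plk-1*, whose kinase acts on SPD-5 to let the scaffold grow, had 458 ± 16.1 CPM (SD, n = 2) in gonads, compared with 5.23 ± 0.275 CPM in *glp-4* worms, a log2 fold change of 6.45 ± 0.17 (SE). Per length it reached 0.842 and 0.769 times *spd-5* in gonads and 0.0597 and 0.0509 times in *glp-4* worms. *air-1*, the Aurora A kinase gene, differed by 5.0 ± 0.16. The 4 genes of the list with the highest CPM in gonads were *paa-1*, *sur-6* and *let-92*, which encode subunits of PP2A, and *klp-7*, which encodes a microtubule-depolymerizing kinesin. *klp-7* had 691 ± 128 CPM in gonads, compared with 125 ± 31.7 CPM in *glp-4* worms. The smallest differences were those of *paa-1* (1.16 ± 0.16, or 0.98 without gonad replicate 2) and *zyg-12*, which links centrosomes to the nucleus (1.21 ± 0.13).

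Among the further genes that act closest to the members, *gip-2*, the other gamma-tubulin complex gene of this type, had 29.9 ± 2.16 CPM (SD, n = 2) in gonads, compared with 5.54 ± 0.371 CPM in *glp-4* worms. Its log2 fold change was 2.43 ± 0.18 (SE), and it stood at 0.661 and 0.622 times *gip-1* per length in gonads and at 0.366 and 0.375 times in *glp-4* worms. *sas-7*, which acts ahead of SPD-2 at the centriole, differed by 2.71 ± 0.15, and *sas-1*, needed for centriole stability, by 3.17 ± 0.16. *hyls-1*, a SAS-4 partner with a role in cilia, had 9.96 ± 2.09 CPM in gonads, compared with 3.44 ± 0.764 CPM in *glp-4* worms.

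**Figure D4:**
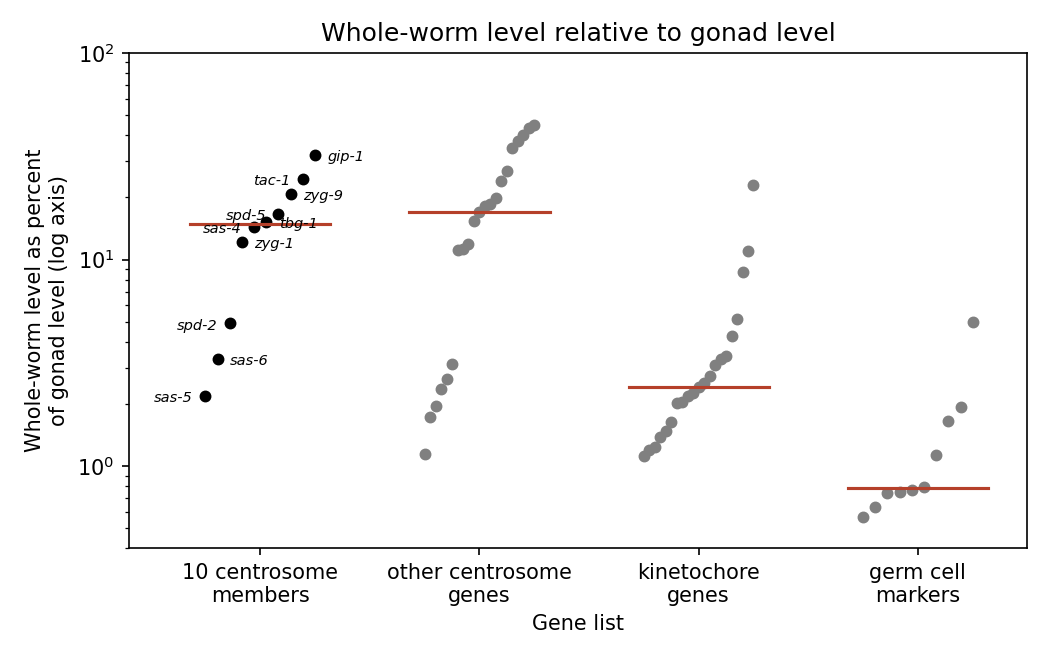
Level in *glp-4* whole worms as a percent of the level in gonads (log axis, ratio of the means of 2 libraries), with 1 point per gene and a line at the median of each list. The 10 centrosome genes run from 2.19% (*sas-5*) to 32.1% (*gip-1*), kinetochore genes have a median of 2.42% and germ cell markers a median of 0.780%.

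A list of 21 kinetochore genes, which serve another structure of dividing cells, was taken as a description beside the members. All 21 were called higher in gonads, as were 30.9% of all genes tested, with a median log2 fold change of 5.35, where the 10 centrosome genes had 2.75. With the housekeeping scaling 20 were called, without *cls-2*, and 2294 of all 13101 genes. Worm levels relative to gonad levels had a median of 14.8% among the 10 centrosome genes and of 2.42% among kinetochore genes. *hcp-1* (946 ± 22.9 CPM in gonads, compared with 10.5 ± 1.36 CPM in *glp-4* worms, SD, n = 2), the RZZ complex gene *rod-1*, the checkpoint kinase gene *bub-1* and the scaffold gene *knl-1* had the highest CPM in gonads. The smallest differences were in *cls-2*, which encodes a microtubule-binding CLASP protein (2.12 ± 0.14, SE), and *czw-1* (3.18 ± 0.15). *knl-3* shares 57.5% of its exon length with genes on the opposite strand.

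The level of the centrosome genes in *glp-4* worms was set beside that of germ cell markers, since few germ cells may remain in these animals. The 10 germ cell markers stood at 0.569% to 5.0% of their gonad level in *glp-4* worms, with a median of 0.780%. The upper end was set by *glh-1*, and the next highest of them was *rec-8* at 1.94%. *sas-5* (2.19%), *sas-6* (3.31%) and *spd-2* (4.91%) lay inside that range and the other 7 centrosome genes, from *zyg-1* (12.1%) to *gip-1* (32.1%), lay above it. The part of residual germ cells in these levels was not tested. Ciliated neuron markers were lower in gonads in 9 of 11 tested genes (53.1% of all genes tested were lower), while *osm-3* and *daf-19* were not called. In both gonad libraries 5 of 12 had 0 counts. Of all 20181 gene rows, 12796 and 12550 had any count in those libraries, so 0 counts were common. *daf-19*, a regulator of cilium genes, had 42.1 ± 3.82 CPM in gonads, compared with 44.5 ± 6.41 CPM in *glp-4* worms (SD, n = 2). The summed level of that list was 54.6 and 63.8 CPM in gonads, compared with 107 and 114 CPM in *glp-4* worms, and its part in the worm levels was not tested.

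Of 5 genes that organize microtubules away from centrosomes, 3 were lower in gonads, 0 were called higher and 2 were not called. Over all genes tested 53.1% were lower, and the list's median log2 fold change of -1.81 was near the -1.50 of all genes, so the count is no result about this list. With the housekeeping scaling 4 were lower. *ptrn-1*, which encodes a minus-end-binding protein, had 25.1 ± 3.19 CPM (SD, n = 2) in gonads, compared with 88.4 ± 1.89 CPM in *glp-4* worms, a difference of -1.81 ± 0.14 (SE). The spectraplakin gene *vab-10* differed by -2.27 ± 0.15 and the ankyrin gene *unc-44* by -4.87 ± 0.17. *noca-1*, which organizes microtubules without centrosomes in both germline and epidermis, had 294 ± 11.5 CPM in gonads, compared with 210 ± 1.99 CPM in *glp-4* worms, under the fold minimum, and its log2 value of 0.49 turned to -0.72 with the housekeeping scaling. *unc-33*, which acts in neuronal microtubule organization, had 86.8 ± 1.22 CPM in gonads against 116 ± 13.5 CPM in *glp-4* worms, also under the fold minimum.

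In the genome the 10 genes lay on all 5 autosomes and 0 were on the X chromosome. By chromosome there were 2 on I, 3 on II, 3 on III, 1 on IV and 1 on V. Exon lengths ran from 872 bases for *tac-1* to 4514 bases for *zyg-9*. Only *sas-6*, *spd-2* and *spd-5* share exon bases with another annotated gene.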

How the data were processed

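Total RNA was freed of ribosomal RNA and amplified into cDNA libraries, per the labels' protocols. The authors deposited a table of raw counts per gene and a table of normalized log2 values. No aligner, counting program or build is named there (not given in the sources used here). Each deposited log2 value matched, to 5e-05, the log2 of 8 plus the count after scaling libraries to their mean total. One row repeating another's counts was left out of 20182. Counts were tested in R 4.3.3 with edgeR 4.0.16 (TMM, filterByExpr with minimum count 10 and minimum total 15, robust quasi-likelihood fit on group, Benjamini-Hochberg over 13101 genes). The fit was first checked on simulated counts in which far fewer genes changed than were called here. That check does not cover the choice of scaling. Reads were amplified and carry no molecular identifiers, so they do not count independent molecules. RPKM used TMM-adjusted CPM and the union of exons in Ensembl release 115 (WBcel235), which may not be the authors' annotation. Replicates differed by more than sampling noise (chi-square per degree of freedom 13.9 in gonads and 14.0 in worms). Named in each list were the 4 most abundant genes in gonads, the 2 with the smallest difference and any lower in gonads, and others were added after their values were seen. Members and lists were chosen with earlier results of these data known. A planned search of promoter sequence was not run, and sequences are not used here.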

Additional observations from a re-analysis of the deposited data

How the results depend on the processing

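All 10 centrosome genes kept their direction under each of the 12 alternatives run on their fold changes (other scalings, DESeq2 1.42.0, other filters, a replicate block, each library left out), and 118 of 120 values kept their call. The exceptions were *tac-1* (0.82) and *gip-1* (0.43) scaled to housekeeping genes, which moved the members' median to 1.55 and the count of all genes called higher in gonads to 2294, with 8077 lower. In the TMM fit 5 of these 7 housekeeping genes were called higher in gonads (30.9% of all genes tested were), with a median log2 fold change of 1.13. That restates the gap between the TMM and housekeeping scalings, and which of them is nearer the truth was not tested. The housekeeping scaling moves every gene by about the same amount, -1.20 at the median. Library totals without TMM moved all genes by -0.15 and the members' median to 2.60. A fold minimum of 4 left 2603 genes higher in gonads and 9 members. Leaving out each library gave a members' median of 2.53 to 2.97, 10 members called throughout, 20 to 21 further centrosome genes, 21 kinetochore genes, and 4049 to 4081 genes higher and 6666 to 7325 lower in gonads. Replicate numbers are not stated to pair libraries. Same-numbered libraries' deviations correlated at 0.218 across genes, and the replicate block left 10 members, 4019 genes higher and 6904 lower in gonads. Library totals moved 6 of 10 levels per length by more than 1 SD, and the longest-transcript length moved 0 of 10.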

Other observations

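The named genes most like the average member over the 4 libraries, out of 7601 candidates, were *bath-34*, *cdh-4*, *ari-1.4*, *sas-1* and *zhit-3*. Likeness was the Euclidean distance between log2(CPM + 1) values centred on each gene's own mean, and the 5 distances ran from 0.0386 to 0.0815. *sas-1*, itself a centriole gene, was at 0.0799 with 71.8 CPM in gonads and 7.99 CPM in *glp-4* worms. *cdh-4*, which encodes a cadherin, had 311 CPM in gonads and 36.7 CPM in *glp-4* worms, a log2 fold change of 3.08. *bath-34* was a low-count gene, at 8.06 CPM in gonads and 0.0812 CPM in *glp-4* worms, and the added 1 brings its pattern close to the members although its fitted log2 fold change was 6.49. Among the members themselves *zyg-1* was nearest to the average (0.152) and *sas-5* farthest from it (2.13).

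In the authors' deposited normalized table, the 10 genes had the same order of differences as in the count fit. That table is a rescaling of the same counts, so the order is no separate evidence. The mean log2 values of *sas-5* were 11.995 in gonads and 6.75 in *glp-4* worms, a difference of 5.25, and those of *gip-1* were 10.8 in gonads and 9.34 in *glp-4* worms, a difference of 1.47.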
